A study of Mus musculus with 12 samples.

Results

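The genes described here are 10 effectors of the integrated stress response in cultured mouse cortical glia: the transcription factors Atf4, Atf3, Atf5 and Ddit3 (CHOP), the phosphatase subunit Ppp1r15a (GADD34), the pseudokinase Trib3, the enzymes Chac1 and Asns, and the growth restraints Ddit4 (REDD1) and Sesn2. They were chosen by name, with earlier results of these data known, and all 10 were found among the 43322 genes of the deposited count table. Poly-A RNA was sequenced from 12 libraries in 3 groups of 4. The cells of every group were wild-type CD1 cortical glia, prepared at postnatal day 3 to 5 with frontal cortices of a single mouse in each preparation, grown with EGF at 10 ng/ml, split at day 7 and used 3 to 7 days later. The thapsigargin group received 3 µM of this inhibitor of the calcium pump SERCA for 60 min. The calcium-free group was held for 60 min in medium that had no calcium and contained the chelator EGTA. The control group received vehicle. The series title places the work in the field of store-operated calcium entry and cell stress, and the comparisons ask how each treatment moved these stress genes.

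The integrated stress response begins when a kinase, PERK (gene Eif2ak3) in the case of endoplasmic reticulum (ER) stress, phosphorylates the initiation factor eIF2α. General translation then slows while the Atf4 message is translated more, and ATF4 protein switches on genes for amino acid supply, redox balance and, through CHOP, cell death. GADD34 closes the loop by directing protein phosphatase 1 to eIF2α, and several of these genes, Atf4 included, are also controlled at the level of their own RNA. Thapsigargin is a classic trigger of this response because it empties the ER of calcium. RNA sequencing reads only the RNA levels of these genes, not translation or phosphorylation.

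Library totals ran from 36.19 to 42.57 M counts, and 17077 genes passed the filter on low counts, among them all 10 genes described here. Several astrocyte markers were abundant: Slc1a3 lay between 2080 and 2950 CPM (counts scaled to a library of 1 M, with normalised library sizes), Gfap between 743 and 1580 CPM and Aldh1l1 between 650 and 798 CPM. S100b was low, at 5 to 14.8 CPM. The oligodendrocyte lineage gene Olig1 lay between 1100 and 1510 CPM, while Sox10 was at most 0.119 CPM. Neuron markers, mainly Map2 and Stmn2, summed to 352.1 to 390.8 CPM with thapsigargin, 417.6 to 456.4 CPM in calcium-free medium and 397.7 to 429.8 CPM in control. Of the 12 astrocyte markers, Slc1a3, Gja1 and Fgfr3 passed the test as lower with thapsigargin (log2 fold changes -0.27, -0.36 and -0.33) and Sox9 as higher (0.33). Microglia markers summed to 126.3 to 174 CPM with thapsigargin, 146.2 to 203.1 CPM in calcium-free medium and 150.6 to 228.7 CPM in control, and 2 of the 10 passed the test as lower with thapsigargin, as did 14.8% of all genes. Their estimates with thapsigargin were all below 0, from -0.145 for Itgam to -0.716 for C1qa. The median log2 fold change of these markers was -0.396 with thapsigargin, against -0.047 for all genes, and -0.244 in calcium-free medium, against -0.008. In such bulk libraries fewer cells of a type and less RNA per cell cannot be told apart. Replicate 4 of every group stood apart from replicates 1 to 3. It had Xist at 588 to 740 CPM, against 0.0832 to 0.319 CPM in the others, Y-linked genes at 0.0481 to 0.215 CPM, against 198 to 221 CPM, and vascular and fibroblast markers at a sum of 84.21 to 112 CPM, against 580.1 to 704.7 CPM. In this last list Col1a1 ranged from 53.5 to 656 CPM over all libraries, Pdgfrb from 21.2 to 37.7 CPM and Kdr from 5.68 to 9.29 CPM. The other genes of the list were at most 1.11 CPM, so the difference of the sums was mostly that of Col1a1. In replicate 4 the microglia markers summed to 126.3 to 150.6 CPM, against 166.5 to 228.7 CPM in the others. The oligodendrocyte lineage markers, of which Olig1 was the largest part, summed to 1910 to 2091 CPM, against 1641 to 1843 CPM. The proliferation markers summed to 1963 to 2065 CPM, against 1537 to 1721 CPM. The series text calls the samples biological replicates, but no label says which preparation each came from. Replicate 4 and the other replicates came from animals of different sex, so each group holds more than 1 animal, and p-values measure the spread between these samples. The part of cell makeup and of replicate 4 in the results below was not tested. Values without replicate 4 are given beside every member whose call they change, and beside some of the related genes and lists.

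With thapsigargin, 6 of the 10 genes rose and 1 fell against control (edgeR quasi-likelihood test, Benjamini-Hochberg adjusted over all 17077 genes, called below 0.05). Over all genes tested, 16.4% were called higher and 14.8% lower. Atf4, Atf3, Ddit3, Ppp1r15a, Chac1 and Sesn2 rose, and Atf5 fell. The libraries of these same 7 genes did not overlap between thapsigargin and control, which was the case for 31.8% of all genes. The first 4 of them changed by at least 2-fold, as did 0.995% of all genes in the upward direction. The median log2 fold change of the 10 was 0.41, against -0.05 for all genes. With the replicate number as a block, 7 rose and 2 fell, beside 23% and 28.2% of all genes. The block takes equal numbers to pair the libraries, which the labels do not state. Without replicate 4 the counts were again 7 and 2, beside 24.4% and 21.2% of all genes.

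In calcium-free medium, 3 of the 10 rose and 0 fell against control by the same edgeR test, beside 3.78% of all genes called higher and 1.55% lower. Atf4, Ppp1r15a and Atf3 rose, and Atf3 only narrowly. At an unadjusted p under 0.05 the counts were 4 higher and 0 lower. The share of all genes at that unadjusted threshold was not counted, here or below. DESeq2 called 3 higher and 0 lower, beside 1058 and 428 of 17077 genes. Libraries did not overlap for 4 genes, these 3 and Sesn2, as for 10.5% of all genes. The median log2 fold change of the 10 was 0.03, against -0.01 for all genes. With the replicate number as a block the counts were 4 higher and 1 lower, beside 10.4% and 7.01% of all genes. Without replicate 4 they were also 4 and 1, beside 10.5% and 5.16%.

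**Figure D1:**
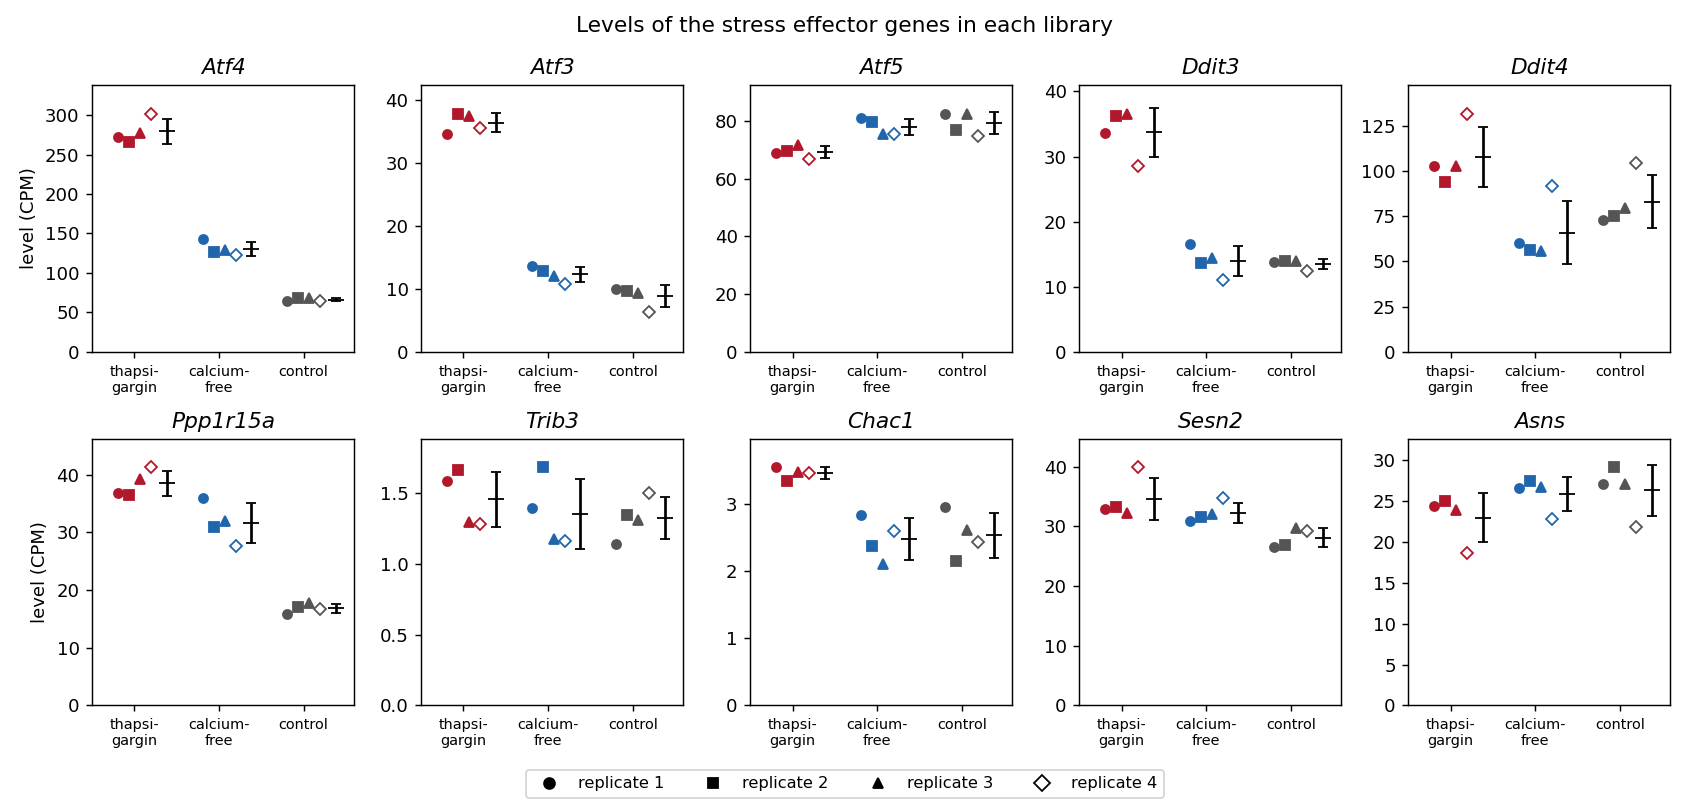
Level of each of the 10 genes in CPM (vertical axis, starting at 0) in the 12 libraries, by group from thapsigargin over calcium-free to control. Points are libraries, open diamonds are replicate 4, and bars are the mean ± SD of 4 libraries; Atf4 sits at 265.7 to 302 CPM with thapsigargin and at 63.87 to 68.64 CPM in control, while the Trib3 groups lie on top of each other.

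Among the transcription factors, Atf4 had the largest estimated change of the 10 in both treatments, although Atf3 with thapsigargin and Ppp1r15a in calcium-free medium lay within the 95% intervals. This central bZIP factor (11911, GRCm39 chr15:80139385-80141746, plus strand) was at 272.9, 265.7, 277.6 and 302 CPM in the thapsigargin libraries, 143.1, 127.1, 129.7 and 122.7 CPM in the calcium-free libraries, and 64.5, 68.6, 67.8 and 63.9 CPM in the control libraries. The 3 groups formed separate steps, with the calcium-free libraries between the others and no overlap anywhere. Atf4 rose 4.22-fold with thapsigargin (log2 fold change 2.08 ± 0.06 SE, adjusted p = 1.68e-09) and 1.97-fold in calcium-free medium (0.98 ± 0.06, adjusted p = 4.08e-06). By the size of its change with thapsigargin it ranked 12 among the 17077 genes. Within each replicate number the log2 ratio of thapsigargin to control was 2.08, 1.95, 2.03 and 2.24.

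Atf3, a stress-inducible repressor of the same family whose gene ATF4 is known to activate, is read from the minus strand (11910, GRCm39 chr1:190902493-190915530). Its upstream region holds a sequence of the C/EBP-ATF response element type, the TGATGNAA motif that ATF4 binds with C/EBP partners, on the reverse strand from 110 to 103 bases before the start. It is shown because Atf3 is the strongly raised member with such a match. The stretch comes from the RefSeq promoter table (GRCm38.p6, chr1:191183364-191183483, minus strand), is written 5′ to 3′ in the direction of the gene, and has the motif in capitals.
Atf3: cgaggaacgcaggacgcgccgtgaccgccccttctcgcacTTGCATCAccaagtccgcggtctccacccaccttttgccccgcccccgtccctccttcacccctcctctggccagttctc
Atf3 was at 34.7, 37.9, 37.5 and 35.6 CPM with thapsigargin, 13.6, 12.9, 12 and 10.8 CPM in calcium-free medium, and 9.93, 9.73, 9.44 and 6.32 CPM in control. The thapsigargin libraries stood far above all others, and the calcium-free libraries lay just above the control libraries without overlap. It rose 4.12-fold with thapsigargin (log2 fold change 2.04 ± 0.12 SE, adjusted p = 5.83e-07). In calcium-free medium it rose by a log2 fold change of 0.48 ± 0.12 (adjusted p = 0.0468), a call that was lost in 11 of 21 alternative fits and kept with the replicate block (adjusted p = 0.00385). The call was lost when any single library of replicates 1 to 3 was left out, whichever its group, with adjusted p from 0.0654 to 0.131.

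Ddit3 encodes CHOP, the bZIP factor that links prolonged ER stress to cell death (13198, GRCm39 chr10:127126662-127132160, plus strand). It was at 33.6, 36.2, 36.6 and 28.5 CPM with thapsigargin, 16.6, 13.6, 14.4 and 11 CPM in calcium-free medium, and 13.8, 14, 13.9 and 12.4 CPM in control. Every thapsigargin library was above every other library, whereas the calcium-free libraries spread to both sides of the control libraries. Ddit3 rose 2.49-fold with thapsigargin (log2 fold change 1.32 ± 0.11 SE, adjusted p = 4.77e-06). In calcium-free medium its log2 difference was 0.04 with a 95% interval of -0.21 to 0.28 (adjusted p = 0.958). The gene overlaps Mbd6 and Mars1 at its ends, and the strand setting of the counting is not given in the sources used here, so part of its counts is uncertain. Mbd6 rose with thapsigargin by a log2 fold change of 0.35 and Mars1 fell by 0.28.

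Atf5, a further bZIP factor of the response that, like Atf4, is controlled largely in its translation, was the 1 member that fell. It was at 68.7, 69.4, 71.7 and 66.6 CPM with thapsigargin, 80.9, 79.6, 75.4 and 75.5 CPM in calcium-free medium, and 82.5, 76.9, 82.3 and 74.8 CPM in control (107503, GRCm39 chr7:44461680-44466082, minus strand). The thapsigargin libraries were the lowest 4 of the 12, and the other groups overlapped. The fall with thapsigargin was small, with a log2 fold change of -0.20 ± 0.04 SE (adjusted p = 0.00378), and 44.8% of all genes changed more in size. In calcium-free medium the log2 difference was -0.02 (adjusted p = 0.899). Atf5 overlaps Nup62, which rose with thapsigargin by a log2 fold change of 0.63, so its counts are uncertain where the genes share sequence.

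Of the outputs, Ppp1r15a was the other gene besides Atf4 with a large change in both treatments. Its product GADD34 recruits protein phosphatase 1 to remove the phosphate from eIF2α (17872, GRCm39 chr7:45172341-45175692, minus strand). The gene overlaps Tulp2, so its counts are uncertain where the genes share sequence. In its upstream region the cyclic AMP response element TGACGTCA, bound by CREB and ATF family dimers, stands from 12 to 5 bases before the start, and reads the same on both strands. It is shown as the single perfect match to this motif among the promoters of the 10 genes, in capitals, from the RefSeq table (GRCm38.p6, chr7:45526269-45526348, minus strand).
Ppp1r15a: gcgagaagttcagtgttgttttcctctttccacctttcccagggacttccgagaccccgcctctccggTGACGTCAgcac
Ppp1r15a was at 36.9, 36.5, 39.2 and 41.3 CPM with thapsigargin, 35.9, 30.9, 32 and 27.6 CPM in calcium-free medium, and 15.9, 17, 17.8 and 16.8 CPM in control. Both treated groups lay well above control, and the lowest thapsigargin library was just above the highest calcium-free library. It rose 2.28-fold with thapsigargin (log2 fold change 1.19 ± 0.07 SE, adjusted p = 7.21e-07) and 1.87-fold in calcium-free medium (0.90 ± 0.07, adjusted p = 5.56e-05).

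Chac1, Trib3 and Asns are established targets of ATF4, and each carries a match to the C/EBP-ATF element. The stretches are shown because these targets, unlike Atf3, changed little or not beyond the test at 60 min. They come from RefSeq (GRCm38.p6) and run 5′ to 3′ in the direction of the gene with the match in capitals: Chac1 at chr2:119351012-119351111 on the plus strand, Asns at chr6:7693210-7693289 on the minus strand, and Trib3 at chr2:152344028-152344057 on the minus strand, where the match lies 15 to 22 bases after the listed start.
Chac1: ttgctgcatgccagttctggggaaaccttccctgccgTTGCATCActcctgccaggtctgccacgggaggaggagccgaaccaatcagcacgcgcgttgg
Asns: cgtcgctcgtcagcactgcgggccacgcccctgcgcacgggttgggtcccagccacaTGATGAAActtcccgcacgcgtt
Trib3: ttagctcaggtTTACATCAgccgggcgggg
The Chac1 match is the same 8 letters as that of Atf3, and lies from 193 to 186 bases before the start, while the Asns match lies from 23 to 16 bases before it. For Trib3 the end of the promoter window was found in 0 of 3 annotated transcripts (GENCODE), in either direction. Its listed start is therefore uncertain.

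Chac1, a glutathione-degrading enzyme, had the second lowest level of the 10 (69065, GRCm39 chr2:119181723-119184807, plus strand). It was at 3.55, 3.35, 3.48 and 3.47 CPM with thapsigargin, 2.83, 2.37, 2.11 and 2.6 CPM in calcium-free medium, and 2.95, 2.15, 2.61 and 2.43 CPM in control. The thapsigargin libraries were tight and above all others, and the remaining groups overlapped. Chac1 rose with thapsigargin by a log2 fold change of 0.45 ± 0.12 SE (adjusted p = 0.0109). In calcium-free medium the difference was -0.03 on the log2 scale, with a 95% interval of -0.29 to 0.23 (adjusted p = 0.967).

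Trib3, a pseudokinase that restrains AKT signalling and ATF4 itself, had the lowest level of the 10 (228775, GRCm39 chr2:152179345-152185980, minus strand). It was at 1.58, 1.66, 1.29 and 1.28 CPM with thapsigargin, 1.39, 1.68, 1.17 and 1.16 CPM in calcium-free medium, and 1.14, 1.34, 1.31 and 1.5 CPM in control. All 3 groups overlapped. The log2 difference was 0.13 with thapsigargin, with a 95% interval of -0.20 to 0.47 (adjusted p = 0.57), and 0.03 in calcium-free medium, with an interval of -0.32 to 0.37 (adjusted p = 0.985). Without replicate 4 these differences were 0.30 (adjusted p = 0.159) and 0.17 (adjusted p = 0.559). A 2-fold rise lies outside both main intervals, while a change of the size seen for Chac1 with thapsigargin lies inside the one for thapsigargin. Its paralog Trib1, which regulates the degradation of C/EBP proteins, rose 2.01-fold to 52 ± 1.85 CPM with thapsigargin and 1.5-fold to 38.9 ± 3.61 CPM in calcium-free medium, against 25.9 ± 3.71 CPM in control (SD, n = 4; adjusted p = 1.09e-05 and 0.00535).

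Asns, which makes asparagine and is a textbook target of the amino acid arm, did not pass the test in either treatment (27053, GRCm39 chr6:7675169-7693209, minus strand). It was at 24.3, 25, 23.9 and 18.6 CPM with thapsigargin, 26.5, 27.4, 26.7 and 22.8 CPM in calcium-free medium, and 27, 29.1, 27.1 and 21.8 CPM in control. Replicate 4 was the lowest library of each group, so the groups overlapped although every thapsigargin library was below the control library of the same number. The log2 difference with thapsigargin was -0.19 ± 0.11 SE (adjusted p = 0.203). With the replicate number as a block, Asns was called lower (log2 fold change -0.19, adjusted p = 0.00079), as it was without replicate 4 (-0.15, adjusted p = 0.0126) and without control replicate 4 alone (-0.27, adjusted p = 0.0478). The within-number log2 ratios were -0.15, -0.22, -0.18 and -0.23, although no label states that equal numbers pair the libraries.

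Ddit4 and Sesn2 both restrain the growth kinase complex mTORC1. Ddit4 (74747, GRCm39 chr10:59785497-59787592, minus strand) was at 102.6, 94.2, 102.9 and 131.8 CPM with thapsigargin, 60.2, 56.3, 55.7 and 91.8 CPM in calcium-free medium, and 73.2, 74.9, 79.7 and 104.6 CPM in control. Replicate 4 was the highest library of each group, 1.32, 1.6 and 1.38 times the mean of its other 3 libraries, and both treated groups overlapped control. Within each replicate number thapsigargin was above control, with log2 ratios of 0.49, 0.33, 0.37 and 0.33, and calcium-free medium was below it, with -0.28, -0.41, -0.52 and -0.19. That equal numbers pair the libraries is not stated by the labels.

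Ddit4 was thus not called without the block, at log2 differences of 0.38 ± 0.17 SE with thapsigargin (adjusted p = 0.121) and -0.33 ± 0.17 in calcium-free medium (adjusted p = 0.356). With the replicate block it was called higher with thapsigargin (0.38, adjusted p = 2.26e-05) and lower in calcium-free medium (-0.35, adjusted p = 0.000439). Without replicate 4 the log2 fold changes were 0.44 (adjusted p = 1.49e-06) and -0.40 (adjusted p = 4.32e-05). It was the 1 member called in opposite directions by the 2 treatments under those fits. Leaving out control replicate 4 alone, or calcium-free replicate 4 alone, was enough for the call with thapsigargin (adjusted p = 0.0389 and 0.0298). Without calcium-free replicate 4 alone, Ddit4 was also called lower in calcium-free medium (-0.54, adjusted p = 0.042). The paralog Ddit4l rose with thapsigargin by a log2 fold change of 0.30 (adjusted p = 0.0237) and had -0.14 in calcium-free medium (adjusted p = 0.542, 0.0245 with the replicate block and 0.0468 without replicate 4). The Ddit4l call with thapsigargin was lost without control replicate 1, 2 or 3.

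Sesn2, a stress-inducible sestrin that senses leucine, was at 32.9, 33.3, 32.2 and 39.9 CPM with thapsigargin, 30.8, 31.5, 32.1 and 34.7 CPM in calcium-free medium, and 26.6, 26.8, 29.7 and 29.2 CPM in control (230784, GRCm39 chr4:132220115-132237767, minus strand). The treated groups overlapped each other, and neither overlapped control. Sesn2 rose with thapsigargin by a log2 fold change of 0.30 ± 0.07 SE (adjusted p = 0.00642). In calcium-free medium the difference was 0.20 ± 0.07 (adjusted p = 0.142), called with the replicate block (adjusted p = 0.00509), without replicate 4 (adjusted p = 0.0106) and without thapsigargin replicate 4 alone (adjusted p = 0.0417). Its paralog Sesn1, known as a p53 and FOXO target, fell to 34.2 ± 1.96 CPM with thapsigargin and 48.6 ± 2.08 CPM in calcium-free medium, against 58.6 ± 2.47 CPM in control (SD, n = 4; adjusted p = 7.82e-07 and 0.00975).

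**Figure D2:**
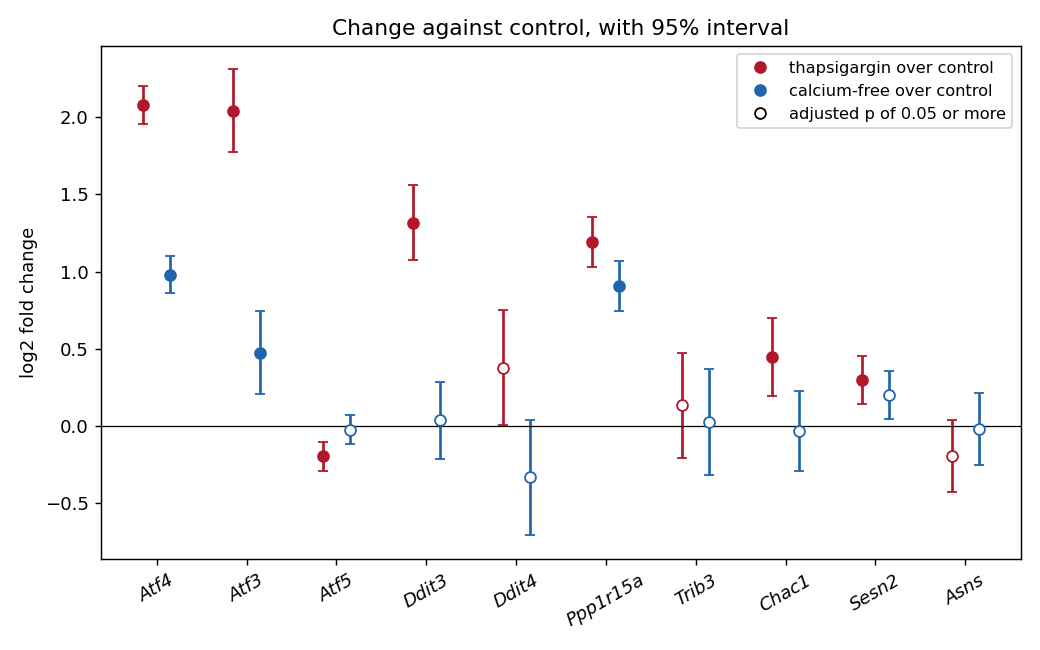
Log2 fold change of each of the 10 genes against control (vertical axis) with its 95% interval, for thapsigargin and for calcium-free medium. Filled points passed the edgeR test at an adjusted p under 0.05: with thapsigargin Atf4 at 2.08, Atf3 at 2.04, Ddit3 at 1.32 and Ppp1r15a at 1.19 stand far above 0, and in calcium-free medium only Atf4 at 0.98 and Ppp1r15a at 0.90 do so.

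**Figure D3:**
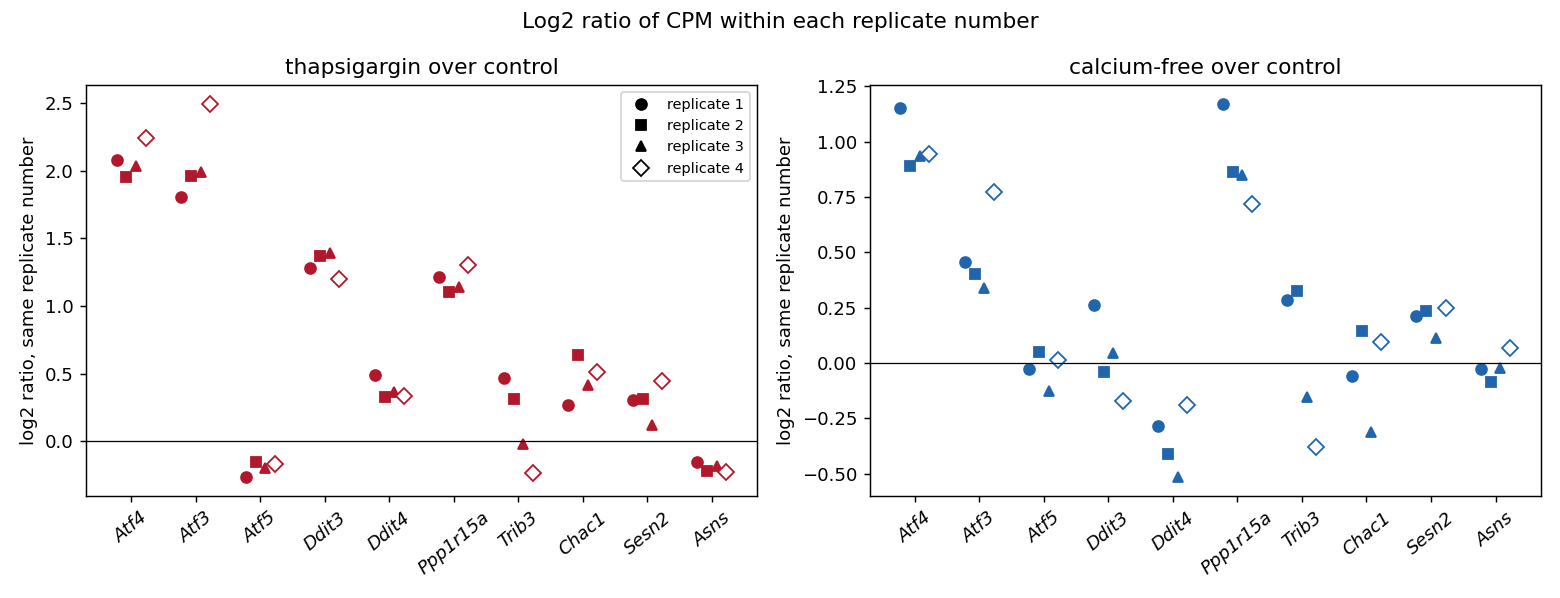
Log2 ratio of treated to control CPM within each replicate number for the 10 genes, thapsigargin in one panel and calcium-free medium in the other; each point is 1 number and open diamonds are replicate 4. All 4 ratios of Ddit4 lie above 0 with thapsigargin (0.33 to 0.49) and below 0 in calcium-free medium (-0.52 to -0.19), and those of Trib3 lie on both sides of 0 in both panels.

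Thapsigargin was also set directly against calcium-free medium, in the same edgeR fit. Of the 10 genes 6 were higher and 1 lower with thapsigargin, beside 14.6% and 13.2% of all genes, and 7 had libraries that did not overlap, beside 28.3% of all genes. The block called 6 higher and 2 lower, beside 22.4% and 26.9% of all genes, and the fit without replicate 4 called 6 and 1, beside 21.7% and 19.4%. Atf3 was 2.96-fold higher with thapsigargin than in calcium-free medium (log2 fold change 1.56 ± 0.12 SE, adjusted p = 6.31e-06), Ddit3 2.43-fold (1.28 ± 0.11, adjusted p = 1.3e-05) and Atf4 2.14-fold (1.10 ± 0.05, adjusted p = 1.13e-06). Ddit4 was 1.64-fold higher with thapsigargin (0.71 ± 0.17, adjusted p = 0.00882), and its libraries did not overlap between the treatments.

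Chac1 was higher with thapsigargin than in calcium-free medium by 0.48 on the log2 scale (adjusted p = 0.00882), and Ppp1r15a by 0.28 ± 0.07 (adjusted p = 0.0118). The difference of Ppp1r15a within a replicate number was 0.04, 0.24, 0.29 and 0.58. Atf5 was lower with thapsigargin (-0.17, adjusted p = 0.00966), a call lost without the filter on low counts (-0.14, adjusted p = 0.07). Trib3 (0.11, 95% interval -0.23 to 0.45), Sesn2 (0.10, -0.06 to 0.25) and Asns (-0.17, -0.40 to 0.06) were not called between the treatments. With the replicate block Asns was called lower with thapsigargin (adjusted p = 0.00193).

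Levels were compared between genes as CPM per kb of exon. With thapsigargin Atf4 led at 161.7 ± 9.11 CPM per kb, followed by Ddit4 at 64.03 ± 9.77 and Atf5 at 34.66 ± 1.04 CPM per kb (SD, n = 4). In calcium-free medium the same 3 genes led, with Atf4 at 75.58 ± 5.07, Ddit4 at 39.16 ± 10.3 and Atf5 at 39.06 ± 1.42 CPM per kb. In control the order was Ddit4 at 49.32 ± 8.68, Atf5 at 39.7 ± 1.94 and Atf4 at 38.29 ± 1.38 CPM per kb. The libraries of Ddit4 and Atf5 overlapped in calcium-free medium, and those of Atf5 and Atf4 in control. Atf3 ranked 4 with thapsigargin, at 18.42 ± 0.768 CPM per kb, where its libraries overlapped those of the next gene Ppp1r15a, and 8 of 10 in control, at 4.479 ± 0.861 CPM per kb, where they overlapped those of its neighbour Ddit3. Chac1 and Trib3 closed the order in every group, Trib3 at 0.7081, 0.6575 and 0.6445 CPM per kb in thapsigargin, calcium-free and control libraries.

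The promoter motifs were counted over the 300-base windows of RefSeq (GRCm38.p6), from 250 bases before to 50 bases after each start, on both strands. All 10 genes matched, with 11 windows among 32851. The C/EBP-ATF element TGATGNAA was found in 4 of the 10 genes and in 3.97% of all windows. The cyclic AMP response element TGACGTCA was found in 1 gene and in 1.79% of all windows, and the ER stress element (CCAAT, then 9 bases of any kind, then CCACG) in 0 of the 10 genes and in 0.119% of windows. The 4 genes with the C/EBP-ATF element were the strongly raised Atf3, the weakly raised Chac1, and Trib3 and Asns, which were not called with thapsigargin. A match describes letters in this window and does not show that a factor binds there.

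Around the 10 genes, 6 lists of related genes were read by role. Of 21 genes for eIF2, its regulators and other initiation or recycling factors, 2 rose and 2 fell with thapsigargin. Their median log2 fold change was -0.045 against -0.047 for all genes. These counts are below the shares of all genes, 16.4% higher and 14.8% lower, and the 6 that fell with the replicate block are near the 28.2% of all genes called lower there. Nck1, an SH2/SH3 adaptor that can bring a phosphatase to eIF2, rose 1.6-fold (log2 fold change 0.68 ± 0.07 SE, adjusted p = 2.54e-05), and Impact, an inhibitor of the kinase GCN2, rose by 0.26 (adjusted p = 0.00524). The PERK gene Eif2ak3, picked out after its values were seen, was at 42.2 ± 1.76 CPM with thapsigargin, 42.7 ± 1.45 CPM in calcium-free medium and 42.7 ± 1.99 CPM in control (SD, n = 4).

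Of the remaining genes named from this list, Eif2s2, the β subunit of eIF2, had -0.10 with thapsigargin (adjusted p = 0.0484), a call lost in 15 of 21 alternative fits, among them those without thapsigargin replicate 1, 2 or 3, any calcium-free library, or control replicate 1, 2 or 4. The double-stranded RNA kinase gene Eif2ak2 had -0.03 (adjusted p = 0.724). In calcium-free medium 0 of the 21 were called in either direction by edgeR, beside 3.78% of all genes called higher and 1.55% lower. At an unadjusted p under 0.05, 4 were higher and 1 lower there, without a share of all genes counted. DESeq2 called 1 higher, beside 1058 of 17077 genes. Both the replicate block and the fit without replicate 4 called 5 higher, beside 10.4% and 10.5% of all genes. Eif2ak2 and Impact were among those higher in calcium-free medium without replicate 4 (0.20 and 0.16, adjusted p = 0.00178 and 0.0485).

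The next list held 14 genes, the stress gene Nupr1 and bZIP factors that can pair with ATF4 or CHOP or act beside them. With thapsigargin 6 rose and 1 fell, and in calcium-free medium 4 rose and 0 fell. There 6 were higher and 0 lower at an unadjusted p under 0.05, for which the share of all genes was not counted. The counts by DESeq2 were again 6 and 0, beside 1058 and 428 of 17077 genes. Of all genes, 16.4% rose and 14.8% fell with thapsigargin, and 3.78% rose and 1.55% fell in calcium-free medium. With the replicate block 7 of the 14 rose and 2 fell with thapsigargin, beside 23% and 28.2% of all genes. Cebpg, a partner of ATF4, rose by a log2 fold change of 0.44 ± 0.05 SE with thapsigargin (adjusted p = 3.95e-05) and 0.27 ± 0.05 in calcium-free medium (adjusted p = 0.00941). Cebpb rose by 0.37 and 0.32 (adjusted p = 0.000962 and 0.0178), the second lost in 4 of 21 alternative fits, including those without calcium-free replicate 2, control replicate 1 or control replicate 2. Creb3l2, an ER membrane-bound factor, rose by 0.26 and 0.21 (adjusted p = 0.000349 and 0.00975), and Atf7 by 0.27 with thapsigargin (adjusted p = 0.00027). Cebpd, picked out after its values were seen, had a larger estimate, 0.96 ± 0.17 SE with thapsigargin (adjusted p = 0.000862). In calcium-free medium Cebpd had 0.61 ± 0.17 (adjusted p = 0.056).

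Of 22 genes of amino acid synthesis and transport, 0 rose and 7 fell with thapsigargin by edgeR. Of all genes, 16.4% were called higher and 14.8% lower. The median log2 fold change of the 22 was -0.129. At an unadjusted p under 0.05 the counts were 0 and 11, but the share of all genes at that threshold was not counted. DESeq2 gave 0 and 6, beside 3134 and 2426 of 17077 genes. With upper quartile scaling 11 fell, beside 3241 of 17077 genes, and the median log2 fold change of all genes was then -0.076. With the replicate block 3 rose and 12 fell, beside 23% and 28.2% of all genes, and without replicate 4 the counts were 3 and 9, beside 24.4% and 21.2%. The serine synthesis genes Psat1 and Psph fell by a log2 fold change of -0.35 ± 0.04 SE (adjusted p = 7.93e-05) and -0.27 ± 0.04 (adjusted p = 0.000149). The mitochondrial folate enzyme Mthfd2 fell with -0.22 (adjusted p = 0.00592), and the glutamine carrier Slc1a5 with -0.36 (adjusted p = 0.000481). In calcium-free medium 0 of the 22 were called by edgeR, beside 3.78% of all genes called higher and 1.55% lower. At an unadjusted p under 0.05, 3 were higher and 1 lower in calcium-free medium, again without a share of all genes. There DESeq2 called 2 higher, beside 1058 of 17077 genes. The block called 4 higher and 1 lower, beside 10.4% and 7.01% of all genes. Without replicate 4 there were 4 higher and 2 lower, beside 10.5% and 5.16%, with Psph among the lower (-0.11, adjusted p = 0.0445).

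Of 12 aminoacyl-tRNA synthetases and the tRNA exporter Xpot, 13 genes in all, 0 rose and 6 fell with thapsigargin. Of all genes, 16.4% were called higher and 14.8% lower. The median log2 fold change of the 13 was -0.159, against -0.047 for all genes. The unadjusted counts were 0 higher and 9 lower, but the share of all genes was not counted for them. DESeq2 gave 0 and 6, beside 3134 and 2426 of 17077 genes. Xpot fell with a log2 fold change of -0.29 ± 0.05 SE (adjusted p = 0.000961), Nars with -0.18 (adjusted p = 0.00261), Wars1 with -0.17 (adjusted p = 0.00107) and Yars with -0.17 (adjusted p = 0.00115). In calcium-free medium 0 of the 13 were called by edgeR, beside 3.78% of all genes called higher and 1.55% lower. At an unadjusted p under 0.05 there were also 0, and DESeq2 called 0, beside 1058 higher and 428 lower of 17077 genes. The block called 1 lower there, beside 7.01% of all genes.

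Of 18 tested genes of other stress outputs, 3 rose and 4 fell with thapsigargin, shares near the 16.4% and 14.8% of all genes, at a median log2 fold change of -0.02, against -0.047 for all genes. Without replicate 4 the counts were 4 and 2, beside 24.4% and 21.2% of all genes. In calcium-free medium 1 rose and 0 fell by edgeR, beside 3.78% and 1.55% of all genes. At an unadjusted p under 0.05 the counts there were 3 and 2, without a share of all genes counted. DESeq2 gave 2 and 0, beside 1058 and 428 of 17077 genes. The replicate block gave 4 and 4, where 10.4% of all genes were higher and 7.01% lower. The AP-1 subunit gene Jun rose to 293 ± 11.2 CPM with thapsigargin and 246 ± 26.4 CPM in calcium-free medium, against 160 ± 14.8 CPM in control (SD, n = 4; adjusted p = 9.22e-06 and 0.00128). The growth arrest gene Gadd45a rose by a log2 fold change of 0.61 ± 0.12 SE with thapsigargin (adjusted p = 0.00186) and had -0.28 in calcium-free medium (adjusted p = 0.241), where it was called lower with the block (adjusted p = 0.00344). The ER oxidase gene Ero1a, a CHOP target, fell with thapsigargin by a log2 fold change of -0.61 ± 0.17 SE (adjusted p = 0.017), a call lost with the replicate block (adjusted p = 0.0638), without replicate 4 (-0.46, adjusted p = 0.174) and without thapsigargin replicate 2 or 3 alone (adjusted p = 0.0529 and 0.0545). The autophagy kinase gene Ulk1 had 0.03 with thapsigargin (adjusted p = 0.582).

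Among 11 paralogs of the members and related factors, 4 rose and 1 fell with thapsigargin and 2 rose and 1 fell in calcium-free medium, with 4 higher and 2 lower there under the block. Of all genes, 16.4% rose and 14.8% fell with thapsigargin, 3.78% and 1.55% in calcium-free medium, and 10.4% and 7.01% there under the block. Trib1, Sesn1 and Ddit4l are described above beside their relatives, and Atf2 rose in calcium-free medium by a log2 fold change of 0.23 ± 0.04 SE (adjusted p = 0.00802) but had 0.07 with thapsigargin (adjusted p = 0.269), called only without replicate 4 (0.11, adjusted p = 0.0192).

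**Figure D4:**
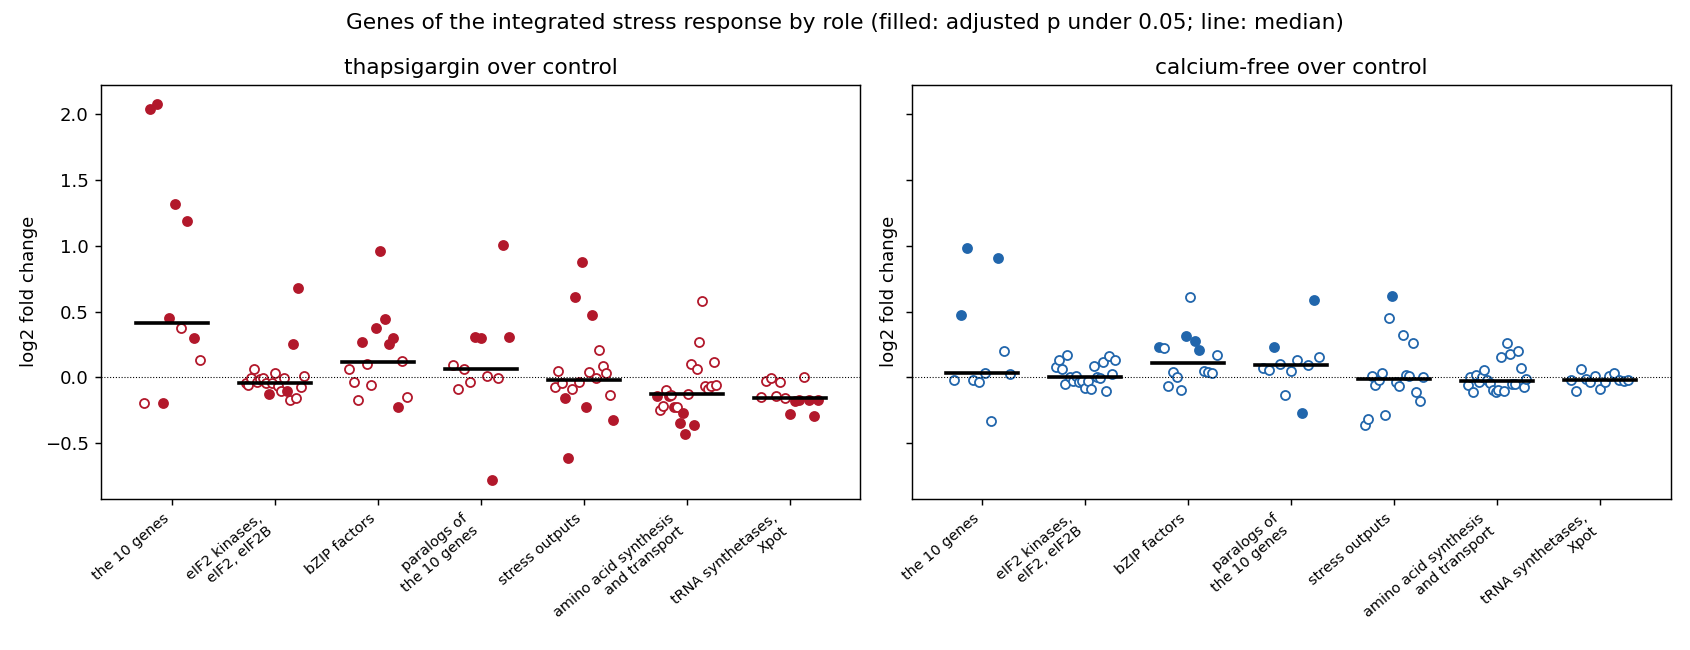
Log2 fold change against control (vertical axis) of every tested gene of the 10 members and the 6 related lists, thapsigargin in one panel and calcium-free medium in the other; points are genes and the line of each list is its median. With thapsigargin the members reach 2.08 while the medians of the amino acid and tRNA synthetase lists lie at -0.129 and -0.159.

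The genes whose pattern over the 12 libraries was most like that of Atf4, by the root mean square difference of log2 CPM centred on the control mean among 11583 candidates, were the early response genes Ier2 (0.237), Btg2 (0.249), Rgs16 (0.298) and Ier3 (0.308) and the Hippo pathway gene Amotl2 (0.324). Their log2 fold changes ran from 1.66 for Amotl2 to 1.81 for Rgs16 with thapsigargin and from 0.69 for Rgs16 to 1.03 for Ier2 in calcium-free medium. For Ddit3 they were Resf1 (0.126), the NF-κB subunit Rel (0.153), Rasgef1b (0.171), the bZIP repressor Nfil3 (0.179) and the RNA-binding protein gene Arid5a (0.183). Their log2 fold changes ran from 1.11 for Arid5a to 1.17 for Nfil3 with thapsigargin, and from -0.18 for Arid5a to 0.17 for Nfil3 in calcium-free medium. Without replicate 4, Resf1 (0.16, adjusted p = 0.0129) and Nfil3 (0.20, adjusted p = 0.00915) were called higher in calcium-free medium.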

How the data were processed

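Groups and replicate numbers came from the sample titles. The authors deposited expected counts per gene (GRCm39); 14.19% to 15.89% of a library's values were not whole, and all were rounded, although raw counts had been foreseen. Tools named in the submitters' processing notes are featureCounts 1.6.4 (Subread), STAR 2.7.2b, cutadapt 1.17 and bcl2fastq 2.20.0.422. Their order, options and strand setting are not given in the sources used. Libraries were stranded and made from 500 ng of RNA with 14 PCR cycles, per the labels' protocols, and without molecular identifiers errors are those of read counts.

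The main test was the quasi-likelihood test of edgeR 4.0.16 (R 4.3.3, limma 3.58.1), robust, with TMM factors, filterByExpr (minimum count 10) and a mean for each group in 1 fit of all 12 libraries. Values of p were adjusted by Benjamini and Hochberg over 17077 genes, and calls are adjusted p under 0.05. The fit was tested on simulated data for thapsigargin against control, with 50 genes changed at each size. These genes had a mean count of at least 50, all other genes were unchanged, and libraries were drawn independently. The fit recovered 40% of 1.25-fold, 70% of 1.5-fold, 96% of 2-fold and 100% of 4-fold changes, and called 5 unchanged genes. Small changes could thus be missed. In the data far more genes were called and replicate 4 deviated together in all groups, so these rates need not hold there. Standard errors come from the F statistic. Alternatives were DESeq2 1.42.0, RLE and upper quartile factors, other filters, fits of 2 groups, left-out libraries and the replicate number as a block; leaving out replicate 4 together with the block was added after seeing the data.

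Libraries that share a replicate number deviated together from their group means (r across genes 0.159 to 0.836, at least 0.814 for replicate 4 and at most 0.392 for replicates 1 to 3). All r were above 0.1, so the numbers were taken to pair the libraries in the block. The group means held replicate 4, which moves replicates 1 to 3 of every group to the same side. Their r, at most 0.392, therefore cannot show pairing among replicates 1 to 3, and r between different numbers was not compared. Replicate libraries differed beyond sampling noise, at a chi-square of 1.66 to 46.1 per degree of freedom. From each related list the 4 genes with the lowest p over the 3 groups are named; 10 tRNA synthetase symbols were matched through older names, and Ppp1r15b, Atf2 and Jdp2 are in 2 lists. Members and lists were chosen with earlier results of these data known.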

Additional observations from a re-analysis of the deposited data

Results flagged for a closer look

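Among the 30 sets of 4 libraries (10 genes in 3 groups), 4 held a library far from the other 3, and all 4 were replicate 4. Chance alone gives about 1 in 20 where the libraries of a group are alike, but replicate 4 differed in sex and cell markers. The share of all genes flagged by this rule was not counted, so the flags are not shown to be particular to these genes. Atf3 was at 6.32 CPM in control replicate 4, against 9.44 to 9.93 CPM in the other control libraries. Ddit3 was at 12.4 CPM in control replicate 4, against 13.8 to 14 CPM. Ddit4 was at 91.8 CPM in calcium-free replicate 4, against 55.7 to 60.2 CPM, and it was also the highest in replicate 4 of the other groups. Sesn2 was at 39.9 CPM in thapsigargin replicate 4, against 32.2 to 33.3 CPM. The part of the sex and cell makeup of replicate 4 in these values was not tested.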

How the results depend on the processing

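Atf4, Atf3, Ddit3, Ppp1r15a, Chac1, Sesn2 and Atf5 with thapsigargin, and Atf4 and Ppp1r15a in calcium-free medium, kept their calls against control in all 21 alternatives. With the replicate block the members called lower were 2 with thapsigargin, 1 in calcium-free medium and 2 between the treatments, and it changed no member call other than those of Ddit4, Sesn2 and Asns. Over all genes the block gave 4817 lower with thapsigargin, 1771 higher and 1197 lower in calcium-free medium, and 3833 higher and 4595 lower between the treatments. Without replicate 4, members called lower were 2 and 1 for thapsigargin and calcium-free medium, with 1782 genes higher and 877 lower in calcium-free medium; adding the block gave 2 and 1 members, 1565 higher and 663 lower. Without the filter on low counts 1456 genes were lower with thapsigargin, 175 in calcium-free medium and 1247 between the treatments, with 0 members lower there. Fitting only the groups compared gave 404 higher and 96 lower in calcium-free medium, and DESeq2 1058 and 428. Leaving out 1 library gave 296 to 849 higher and 76 to 600 lower in calcium-free medium, members called higher 2 to 4 and lower 0 to 1 there, and 6 to 7 and 1 to 2 with thapsigargin. Of all calls, 70.9% were higher in calcium-free medium with TMM and 58.5% with upper quartile factors. The cause of these shifts was not tested.

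Values near 0 changed sign. Eif2s2 in calcium-free medium was -0.0215 with upper quartile factors and -0.0021 with a floor on average log2 CPM. Eif2ak2 with thapsigargin was 0.0022 without the filter, 0.0427 without replicate 4 and 0.0425 with the block added. In the same last 2 fits for calcium-free medium Ero1a was 0.1011 and 0.103, and Rasgef1b -0.0118 and -0.0123. Leaving out 1 library gave ranges in calcium-free medium of -0.1002 to 0.033 for Asns, -0.1038 to 0.0485 for Chac1, -0.0581 to 0.1291 for Ddit3, -0.0947 to 0.0965 for Trib3, -0.0193 to 0.029 for Eif2s2, -0.1915 to 0.1051 for Ero1a, -0.0364 to 0.089 for Rasgef1b, -0.0063 to 0.0747 for Rel, -0.0691 to 0.0058 for Xpot and -0.029 to 0.002 for Yars, and of -0.0584 to 0.0178 for Eif2ak2 with thapsigargin. Depth bears on Trib3, which was under 1.7 CPM in every library.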
